A study of Danio rerio with 2 samples.

Results

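The genes described here are the regulators of G protein signaling (rgs symbols), the G protein-coupled receptor kinases (grk symbols) and the arrestins (arrb and arr3 symbols). They were taken by symbol from the deposited gene list, as every symbol that opens with rgs or grk followed by a digit, or with arrb or arr3. The rule found 40 of the 25432 genes listed. Of these, 26 are rgs symbols, 9 are grk symbols and 5 are arrestins.

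The data are single-cell RNA sequencing of pituitaries from sexually mature zebrafish females aged 3 months. The WT library was made from 5 pooled pituitaries of *gnrh3*+/+ females, and the *gnrh3*-/- library from 5 pooled pituitaries of their homozygous mutant siblings, so that there was 1 library per genotype. Gnrh3 is a hypothalamic peptide whose neurons reach the pituitary in zebrafish. All animals were dissected before lights on, and all cells passed through the same enzymatic dissociation.

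A hormone or peptide that binds a G protein-coupled receptor makes the receptor load GTP onto a G alpha subunit, and the signal lasts until that GTP is hydrolyzed. RGS proteins speed this hydrolysis, GRKs phosphorylate the active receptor, and arrestins bind the phosphorylated receptor, uncouple it from the G protein and lead it to endocytosis. Pituitary cells receive most of their hypothalamic input through such receptors, and in mammals several RGS genes respond quickly to the same inputs.

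Levels are given as unique molecular identifiers (UMIs) of a gene per 10000 UMIs of all genes, after summing all cells that a library holds of a type. UMIs were read from transcript 3′ ends and not divided by gene length, so levels are compared between cell types and libraries and not between genes. Brackets give exact 95% intervals, from the Poisson distribution for levels and from the Clopper-Pearson method for shares of cells and for log2 ratios, and they cover counting error only. No p-value is given, because a single library stands for each genotype, and the spread between cells does not describe animals. The cell types are those of the deposited annotation, which was made by clustering these same cells, so differences between types are descriptions.

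The WT library held 2194 cells with a median of 6961 UMIs, and the *gnrh3*-/- library 4794 cells with a median of 5368 UMIs. In each of the 13 types reported the *gnrh3*-/- cells were shallower, with a median depth between 0.499 and 0.737 times that of WT cells. The libraries shared 1 cell barcode. The mutated gene, *gnrh3*, had 1 UMI in the cells of each library, which does not tell the genotypes apart. The hormone genes of other types were higher in the *gnrh3*-/- library, with a summed level of 25.1 (WT) and 272 (*gnrh3*-/-) in LH gonadotropes, of 52.0 and 357 in FSH gonadotropes and of 12.3 and 386 in thyrotropes. Doublet detection called 0.319% of the WT cells and 3.40% of the *gnrh3*-/- cells, which were kept unless stated otherwise.

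Of the 40 genes, 20 had at least 100 UMIs over the cells of both libraries, and 6 of these had at least 1000, namely *arrb2b*, *grk4*, *rgs5a*, *rgs5b*, *rgs12b* and *rgs16*. Another 9 had 10 to 99 UMIs and 6 had 1 to 9 UMIs. No UMI was found in any cell for *grk1b*, *grk7a*, *rgs1*, *rgs9b* and *rgs9bp*, among 21981081 UMIs of WT cells and 33216333 of *gnrh3*-/- cells.

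By subfamily, the R4 proteins, small RGS proteins with little beyond the catalytic domain, were best counted, with 10 of 11 genes detected and 5467 and 7620 UMIs in the WT and *gnrh3*-/- cells. The R7 proteins, which pair with G beta 5 and are best known from neurons and photoreceptors, had 5 of 6 genes detected with 443 and 603 UMIs, and their membrane anchors had 29 and 30 UMIs over 3 genes. The RZ genes (*rgs17*, *rgs19* and *rgs20*) had 487 and 591 UMIs and the R12 genes (*rgs12a*, *rgs12b* and *rgs14a*) 848 and 1057.

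Among the receptor kinases, the 4 genes of the GRK4/5/6 class had 1159 and 1423 UMIs in all, of which *grk4* held 820 and 1050. The 4 visual kinases, known from photoreceptors, had 8 and 16 UMIs. The GRK2/3 class was present as *grk3* alone, with 42 and 62 UMIs. The 3 beta-arrestin genes had 979 and 1347 UMIs, and the 2 cone arrestin genes 276 and 283, of which *arr3a* held 271 and 281.

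**Figure D1:**
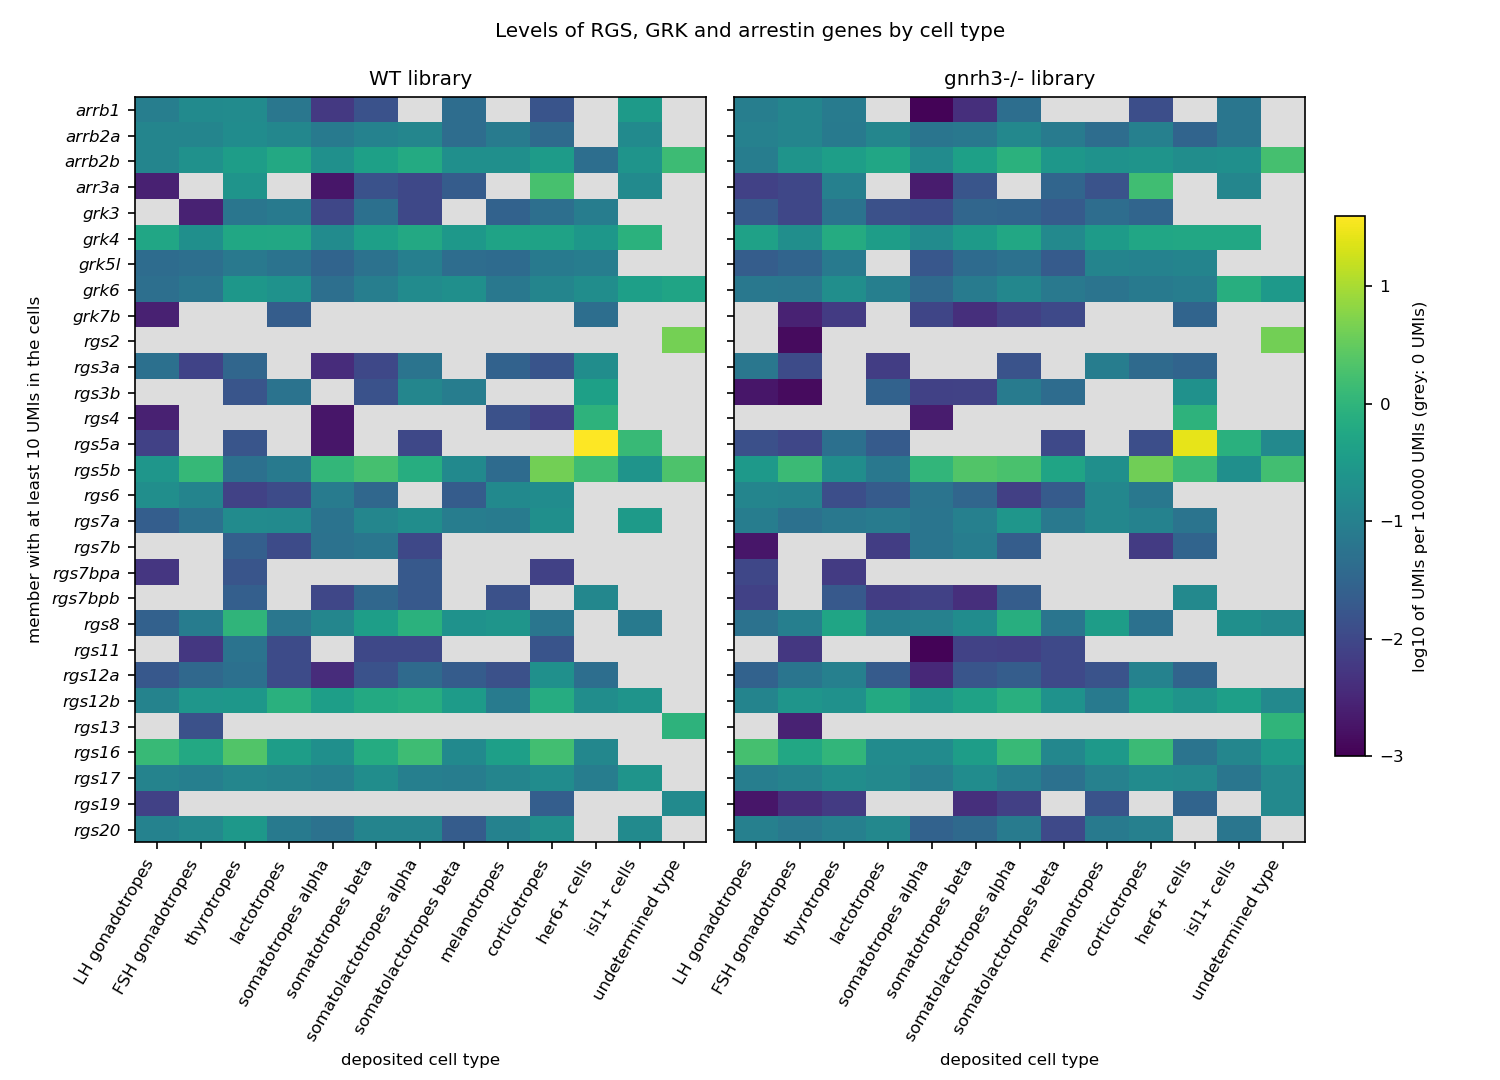
Levels (UMIs per 10000 UMIs, log10 color scale) of the 29 genes with at least 10 UMIs, in the 13 cell types (columns) of the WT library (left) and the *gnrh3*-/- library (right); grey marks 0 UMIs. The brightest cells of the plot are *rgs5a* in *her6*+ cells, at 38.6 and 27.3, while *grk4* has a UMI in all types but the undetermined one.

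The genes were then searched for any found mainly in a single cell type. A gene was said to have 1 highest type where the same type led in both libraries, with at least 10 UMIs in each and at least 2 times the level of the next type. This held for 4 genes, *rgs5a* and *rgs4* in *her6*+ cells, *arr3a* in corticotropes and *rgs2* in the undetermined type. With a minimum of 100 UMIs it held for 2 of 20, *arr3a* and *rgs5a*, against 9.12% of all 11697 genes with that many UMIs. Over all genes with a UMI, the share was 6.16%.

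The best counted of the 4 was *rgs5a* (ENSDARG00000002644), an R4 gene that in mammals, as RGS5, is known from pericytes and vascular smooth muscle. WT *her6*+ cells were at a level of 38.6 [36.1, 41.3], from 858 UMIs, and *gnrh3*-/- *her6*+ cells at 27.3 [25.5, 29.1], from 913 UMIs. The next type, *isl1*+ cells, was at 1.28 and 0.843, so that the *her6*+ level was 30.1 and 32.3 times as high. Together, the 37 WT and 64 *gnrh3*-/- *her6*+ cells held 96.3% and 93.4% of all *rgs5a* UMIs in the cells of each library, the type not reported here included.

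Nearly every *her6*+ cell carried the transcript. After thinning to 2000 UMIs per cell, 87.9% and 88% of *her6*+ cells had an *rgs5a* UMI, and without thinning 94.6% and 92.2%. Among all other cells of the library, 0.788% of 2157 WT cells and 0.846% of 4730 *gnrh3*-/- cells had an *rgs5a* UMI without thinning. Median depth was 4774 UMIs for WT and 3520 for *gnrh3*-/- *her6*+ cells. The median number of *rgs5a* UMIs per cell was 11 and 10, and the highest 123 and 64. Empty droplets, barcodes with 10 to 100 UMIs that carry RNA free in the suspension, had *rgs5a* levels of 0.770 and 0.430, below the levels in *her6*+ and in *isl1*+ cells.

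The *gnrh3*-/- over WT ratio of *rgs5a* in *her6*+ cells was -0.50 [-0.64, -0.37] on the log2 scale, which is short of 1.5-fold. The ratio was -0.23 with TMM scaling (trimmed mean of M values) and -0.20 as a mean of per-cell levels, where each cell counts alike. Over the 563 genes compared in these cells, 4.8% were past 1.5-fold higher and 11.2% lower. The summed level of pituitary hormone genes in *her6*+ cells was 7.66 and 581, with *gh1* alone at 3.69 and 517. With hormone genes left out of the total the ratio was -0.42, and without cells that held over 5% of another type's hormone it was -0.37.

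The gene that gave these cells their name, *her6*, a Notch-responsive transcriptional repressor, was at 5.27 and 9.76. Of 5 endothelial markers (*plvapb*, *kdrl*, *cdh5*, *pecam1* and *egfl7*), only *cdh5* had a UMI, 1 in the *gnrh3*-/- library. The paper named *plvapa* and *her6* as markers of its endothelial cells, and took *her6* as a progenitor marker too. *Plvapa* was not among the 5, so whether *her6*+ cells are endothelial was not tested. Of 4 glial markers, *fabp7a*, a fatty acid binding protein known from radial glia, was at 15.4 and 6.57, *slc1a2b* at 0.721 and 0.358 and *s100b* at 0.180 and 0.597, and *gfap* had 1 and 2 UMIs. The 4 fibroblast markers summed to 4.50 and 3.70. A list of 8 mural cell genes was added after the values had been seen. Of these, *pdgfrb* was at 2.61 and 1.82 and *notch3* at 2.25 and 1.28, and the other 6, *acta2* and *tagln* among them, had 0 UMIs in both libraries. Leukocyte and red blood cell markers were at 0 in *her6*+ cells.

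*Rgs4* (ENSDARG00000070047), another R4 gene and in mammals a regulator of Gi and Gq signals in neurons and muscle, followed the same cells at much lower counts. It had 21 WT and 32 *gnrh3*-/- UMIs in *her6*+ cells, at levels of 0.946 [0.585, 1.45] and 0.955 [0.654, 1.35], and at most 2 UMIs in any other type reported. In the WT library 12 of 37 and in the *gnrh3*-/- library 16 of 64 *her6*+ cells had an *rgs4* UMI, and all of these also had *rgs5a*. In the gene order of the GRCz12tu assembly, *rgs4*, *rgs5a*, *rgs16* and *rgs8* lie side by side with no protein-coding gene between neighbors, so both genes of *her6*+ cells are neighbors. The others of this row, *rgs16* and *rgs8*, had 3 and 0 UMIs in WT and 2 and 0 in *gnrh3*-/- *her6*+ cells. Neighboring order in that assembly was not checked against the build used for counting.

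*Rgs5b* (ENSDARG00000017860), the paralog of *rgs5a*, was spread over other cells. Corticotropes led in both libraries at 4.24 [3.89, 4.62] and 4.08 [3.76, 4.41], from 540 and 634 UMIs. This was 2.06 and 1.80 times the next type, so that *rgs5b* fell just short of the rule. Somatotropes beta were at 1.78 and 2.27, FSH gonadotropes at 1.21 and 1.38, and somatotropes alpha at 1.11 and 1.06. Thyrotropes (0.0489 and 0.178), lactotropes (0.0783 and 0.0693) and melanotropes (0.0413 and 0.193) were the lowest of the 13 types in the WT library and, with *isl1*+ cells (0.195), among the 4 lowest in the *gnrh3*-/- library. In *her6*+ cells the level was 1.49 and 1.34, but 23 of 33 WT UMIs and 16 of 45 *gnrh3*-/- UMIs came from 1 cell each.

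*Arr3a* (ENSDARG00000056511), an arrestin named for its role in cone photoreceptors, had 1 highest type in corticotropes, the *pomca* cells that make ACTH. It had 232 WT and 240 *gnrh3*-/- UMIs there, at levels of 1.82 [1.6, 2.07] and 1.54 [1.35, 1.75]. In the WT library this was 7.46 times the level of the next type, thyrotropes, at 0.244. In the *gnrh3*-/- library *isl1*+ cells came next at 0.130, from 2 UMIs, and then thyrotropes at 0.102. Of the 30 *arr3a* UMIs in WT thyrotropes, 10 came from 1 cell. Melanotropes, which share *pomca* with corticotropes, had 0 and 1 *arr3a* UMIs in 85 and 137 cells.

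After thinning to 2000 UMIs, 30.6% [24.0, 37.8] of WT and 26.7% [21.4, 32.6] of *gnrh3*-/- corticotropes had an *arr3a* UMI, and without thinning 58.6% and 47.1%. In LH gonadotropes, a type with few *arr3a* UMIs (1 in WT and 4 in *gnrh3*-/-), no thinned cell had one. Median depth was 6480.5 and 4230.5 UMIs in corticotropes and 15651.5 and 8250 in LH gonadotropes. Empty droplets had *arr3a* levels of 0.132 and 0.214. The log2 ratio between the genotypes was -0.24 [-0.51, 0.03], short of 1.5-fold. *Arr3b*, the other cone arrestin gene, had 5 and 2 UMIs over all cells.

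*Rgs2* (ENSDARG00000098761), in mammals an R4 protein with a preference for Gq, was found almost only in the type that the annotation leaves undetermined. It had 27 of 27 WT UMIs and 29 of 30 *gnrh3*-/- UMIs there, from 11 and 17 cells, at levels of 4.29 [2.83, 6.24] and 4.23 [2.83, 6.07]. An *rgs2* UMI was found in 7 of 11 WT and 9 of 17 *gnrh3*-/- cells of the type, 63.6% [30.8, 89.1] and 52.9% [27.8, 77.0]. Markers of leukocytes were detected in the same cells, 6 of 6 genes with a summed level of 122 and 133. Most of this sum came from *cd74a*, at 101 and 120, while *mpx* had 4 and 2 UMIs. *Fcer1gl*, the paper's marker of potential immune cells, was at 18.4 and 11.5. *Rgs13*, an R4 gene of lymphoid and mast cells in mammals, had 6 and 7 UMIs in this type and 20 in all cells, too few for the rule. The level of *arrb2b* was also highest there, at 1.43 and 1.75, from 9 and 12 UMIs.

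**Figure D2:**
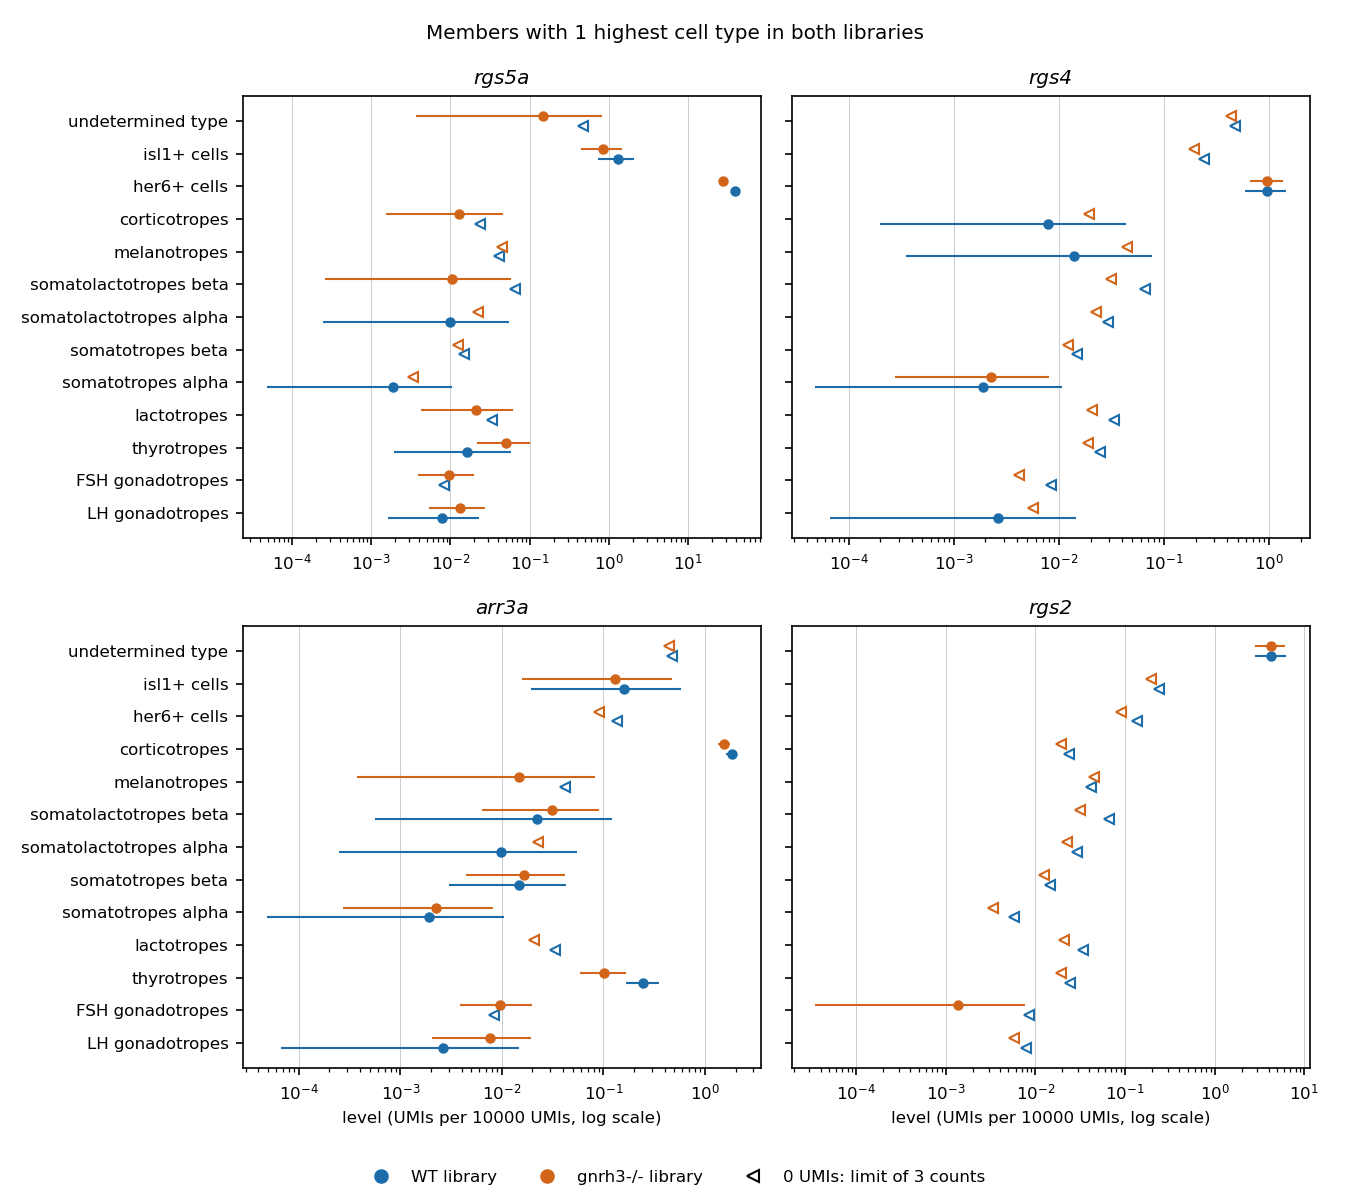
Levels (UMIs per 10000 UMIs, log axes that differ between panels) of *rgs5a*, *rgs4*, *arr3a* and *rgs2* by cell type, for the WT library (blue) and the *gnrh3*-/- library (orange). Points are levels, bars exact Poisson 95% intervals, and open triangles the level of 3 counts where there were 0 UMIs. The point of 1 type lies to the right of all others in each panel and in both colors.

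The remaining well-counted genes had no single type. *Grk4* (ENSDARG00000070448), a receptor kinase that in mammals acts on dopamine receptors among others, had a UMI in 12 of the 13 types, all but the undetermined one. Its level was between 0.167 (somatotropes alpha) and 0.882 (*isl1*+ cells, 11 UMIs) in WT cells, and between 0.145 (somatolactotropes beta) and 0.687 (thyrotropes) in *gnrh3*-/- cells.

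*Rgs12b* (ENSDARG00000036774), of the large multidomain R12 class, was highest in lactotropes (0.839) in the WT library and in somatolactotropes alpha (0.783) in the *gnrh3*-/- library. The intervals of these types overlapped in each library. *Rgs8* (ENSDARG00000070037), an R4 gene of neurons in mammals, was highest in thyrotropes (1.01) in the WT library and in somatolactotropes alpha (0.776) in the *gnrh3*-/- library. *Rgs7b* (ENSDARG00000096687) was counted mainly in somatotropes, with 28 of 46 WT and 55 of 86 *gnrh3*-/- UMIs in somatotropes alpha. Somatotropes beta had 13 and 22 UMIs.

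The level of all 40 genes together was highest in *her6*+ cells, at 43.0 and 31.6, of which *rgs5a* held 89.9% and 86.4%. Corticotropes followed at 10.6 in the WT library, with the undetermined type at 10.0. In the *gnrh3*-/- library the order of these 2 was reversed, with 9.10 and 10.4. The gonadotropes were lower, LH cells at 3.13 and 3.58 and FSH cells at 3.42 and 3.55.

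Gonadotropes were compared next. The paper describes LH and FSH gonadotropes as separate types, each of which also expresses the beta subunit gene of the other at a lower level. Here too, UMIs of *lhb* were found in FSH gonadotropes and UMIs of *fshb* in LH gonadotropes, in both libraries. The part of this overlap in the differences between LH and FSH gonadotropes was not tested. For genes with at least 100 UMIs over both types and at least 4 in each, in each library, 6 of the 40 could be compared. Of these, 5 differed by at least 1.5-fold in the same direction in both libraries, against 21.5% of all 4361 genes compared. The genes higher in LH gonadotropes were *grk4* and *rgs16*, against 11.9% of all genes. Those higher in FSH gonadotropes were *arrb2b*, *rgs5b* and *rgs12b*, against 9.56%. The medians of the log2 ratio LH over FSH were -0.07 in WT and -0.47 in *gnrh3*-/- over the 6 genes, and -0.03 and 0.02 over all genes.

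*Rgs16* (ENSDARG00000040177), an R4 protein that in mammals acts on Gi and Gq and is induced by many stimuli, was at 1.24 [1.13, 1.35] in LH and 0.587 [0.510, 0.671] in FSH gonadotropes of the WT library. In the *gnrh3*-/- library it was at 1.72 [1.61, 1.83] and 0.572 [0.518, 0.629]. The log2 ratio LH over FSH was 1.07 [0.84, 1.32] and 1.59 [1.42, 1.76]. The LH level was thus above the FSH level in both libraries, with intervals that did not overlap.

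The share of cells with a UMI pointed the same way as the level in the *gnrh3*-/- library only. After thinning, 12.2% of WT and 13.1% of *gnrh3*-/- LH gonadotropes had an *rgs16* UMI, and 12.6% and 10.4% of FSH gonadotropes. Without thinning, LH gonadotropes had shares of 42.7% and 34.3% at median depths of 15651.5 and 8250 UMIs, and FSH gonadotropes shares of 51.9% and 31.0% at 14919 and 8509.5. A few LH cells held many molecules. The median LH cell with *rgs16* had 2 and 1 UMIs, and the highest 97 and 46. In the WT library the top cell held 20.6% of all *rgs16* UMIs of LH gonadotropes, and in *gnrh3*-/- FSH gonadotropes 1 cell held 56 UMIs, 13.5% of that sum. Without the top cells the WT log2 ratio was 0.81. Empty droplets had *rgs16* levels of 0.525 and 0.863. Free RNA was estimated at 0.156% and 0.629% of the UMIs of LH gonadotropes and at 0.150% and 0.598% of those of FSH gonadotropes. Each estimate is the lowest that any hormone gene of another type gave, without the 10% of cells richest in that gene. It is thus a low estimate. The same 5 genes were past the fold after its subtraction.

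*Grk4* was at 0.528 [0.458, 0.607] in LH and 0.193 [0.150, 0.244] in FSH gonadotropes of the WT library, and at 0.435 [0.381, 0.495] and 0.188 [0.158, 0.222] in the *gnrh3*-/- library. The log2 ratios were 1.45 [1.05, 1.87] and 1.21 [0.90, 1.53]. At most 6 UMIs of *grk4* came from 1 LH cell. After thinning, 10.4% and 7.37% of LH and 4.78% and 4.15% of FSH gonadotropes had a UMI. For this gene the share of cells pointed the same way as the level in both libraries.

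*Rgs5b* had the widest gap of the 6 genes compared, toward FSH gonadotropes. It was at 0.263 [0.214, 0.320] in LH and 1.21 [1.1, 1.33] in FSH gonadotropes of the WT library, and at 0.308 [0.262, 0.359] and 1.38 [1.29, 1.46] in the *gnrh3*-/- library. The log2 ratios were -2.20 and -2.16, so FSH gonadotropes held 4.60 and 4.47 times the level of LH gonadotropes. After thinning, 18.7% [13.9, 24.3] and 20.5% [17.7, 23.5] of FSH but 5.65% and 3.18% of LH gonadotropes had an *rgs5b* UMI. In lactotropes, a type with few *rgs5b* UMIs, the share was 1.11% and 1.09%, at median depths of 4743 and 3434.5 UMIs. Empty droplets were at 0.945 and 1.21. *Rgs3a*, which was under the minimum, had a wider gap, toward LH gonadotropes. Its log2 ratio was 2.57 [0.81, 4.97] in WT, from 19 LH and 3 FSH UMIs. In *gnrh3*-/- cells it was 2.59 [1.46, 3.91], from 35 and 8 UMIs.

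*Rgs12b* was at 0.113 in LH and 0.257 in FSH gonadotropes of the WT library, and at 0.120 and 0.251 in the *gnrh3*-/- library, with log2 ratios of -1.19 [-1.74, -0.65] and -1.07 [-1.51, -0.65]. *Arrb2b* (ENSDARG00000011545), a beta-arrestin, was at 0.124 (LH) and 0.212 (FSH) in WT and at 0.0893 and 0.244 in *gnrh3*-/- cells, with log2 ratios of -0.78 [-1.34, -0.24] and -1.45 [-1.95, -0.98]. Its paralog *arrb2a* (ENSDARG00000039215) had 48 and 44 UMIs in WT LH and FSH gonadotropes and 56 and 89 in *gnrh3*-/-, with levels between 0.106 and 0.126 in all 4, and fell under the minimum in the WT library. *Arrb1* (ENSDARG00000043241) was at 0.0920 in LH and 0.162 in FSH gonadotropes of the WT library and at 0.0931 and 0.123 in the *gnrh3*-/- library. *Rgs6* (ENSDARG00000015627), the R7 gene with most UMIs in LH gonadotropes, had log2 ratios LH over FSH of 0.65 [0.08, 1.24] in WT and 0.13 [-0.36, 0.61] in *gnrh3*-/- cells, and so was past the fold in the WT library only.

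**Figure D3:**
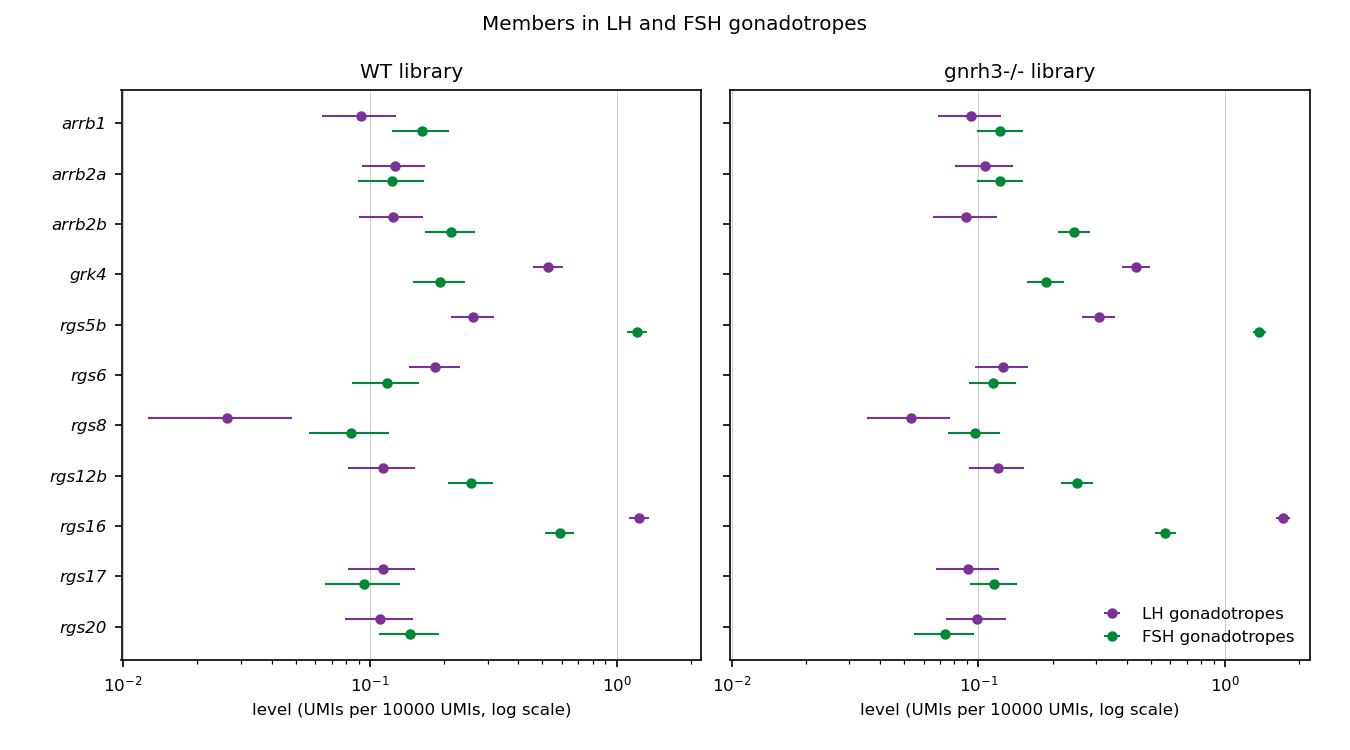
Levels (UMIs per 10000 UMIs, log axis) of the 11 genes with at least 100 UMIs in LH or FSH gonadotropes, in LH (purple) and FSH gonadotropes (green) of each library, with exact Poisson 95% intervals. The purple points of *grk4* and *rgs16* lie to the right of the green ones in both libraries, and those of *arrb2b*, *rgs5b* and *rgs12b* to the left.

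The genotypes were then compared within each type. A gene was compared where both libraries together had at least 100 UMIs, and neither had fewer than 4. A UMI of the Gnrh receptor *gnrhr2* was found in 201 of 232 WT and 440 of 603 *gnrh3*-/- LH gonadotropes. These counts are without thinning, at median depths of 15651.5 and 8250 UMIs, and are not read as a difference. In LH gonadotropes 6 of the 40 genes passed and 0 were past 1.5-fold, against 8.46% of all 5131 genes, 5.94% higher and 2.51% lower in *gnrh3*-/-. The median log2 ratio was -0.08 over the 6 genes and 0.07 over all genes.

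*Rgs16* had 470 UMIs in WT and 904 in *gnrh3*-/- LH gonadotropes, a log2 ratio of 0.48 [0.31, 0.64]. It was past 1.5-fold in 2 alternatives, at 0.67 as a mean of per-cell levels and at 0.73 without the cell with the most UMIs in each library. The lowest alternative put the ratio at 0.40. The thinned shares of LH gonadotropes with an *rgs16* UMI were close, at 12.2% in WT and 13.1% in *gnrh3*-/-. *Rgs6* was at 0.184 and 0.125, a log2 ratio of -0.55 [-1.06, -0.05]. It was past 1.5-fold with TMM scaling, with a total without hormone genes and without doublets. For *grk4* the log2 ratio was -0.28 [-0.56, 0.00], for *rgs5b* 0.23 [-0.14, 0.60], for *rgs12b* 0.08 [-0.50, 0.68] and for *arrb2a* -0.25 [-0.83, 0.34]. The intervals of these 4 genes do not exclude a ratio of 1.

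In FSH gonadotropes 11 genes passed and 1, *rgs20*, was past 1.5-fold, against 7.26% of all 5596 genes, 4.43% higher and 2.82% lower. The median log2 ratio was -0.03 over the 11 genes and 0.02 over all genes. *Rgs20* (ENSDARG00000038859), an RZ protein with a preference for Gz and Gi in mammals, had 52 UMIs in 231 WT cells and 53 in 794 *gnrh3*-/- cells. Its level was 0.145 [0.108, 0.190] and 0.0732 [0.0548, 0.0957], a log2 ratio of -0.99 [-1.57, -0.41]. After thinning, 1.74% of WT and 1.55% of *gnrh3*-/- FSH gonadotropes had an *rgs20* UMI, with intervals that overlapped, and without thinning 15.2% and 5.79%. Without the top cell of each library *rgs20* was under the minimum of 100 UMIs, at a log2 ratio of -0.99. In LH gonadotropes *rgs20* had 42 and 52 UMIs, at 0.110 and 0.0988.

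In 3 further types, where *rgs20* did not reach the minimum of UMIs, its interval was below 0. In thyrotropes it had 35 and 16 UMIs, a log2 ratio of -1.49 [-2.44, -0.60]. In somatotropes beta it had 24 and 9 UMIs, a ratio of -1.67 [-2.96, -0.51], and in somatotropes alpha 28 and 25 UMIs, a ratio of -0.92 [-1.76, -0.09]. Lactotropes had the other sign, with 7 and 20 UMIs and a ratio of 0.82 [-0.48, 2.31].

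The others in FSH gonadotropes were closer to a ratio of 1. The log2 ratio was -0.04 [-0.28, 0.21] for *rgs16*, 0.19 [0.02, 0.35] for *rgs5b*, -0.40 [-0.89, 0.10] for *arrb1*, 0.20 [-0.19, 0.61] for *arrb2b* and 0.29 [-0.30, 0.91] for *rgs17*. For *grk4*, *arrb2a*, *rgs6* and *rgs12b* it lay between -0.04 and 0.00, and for *rgs8* it was 0.21 [-0.43, 0.87]. The *rgs16* intervals in LH and FSH gonadotropes did not overlap. A difference between the types was not tested.

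Immediate early genes, which respond within minutes to stimulation and to cell handling, also differed between the libraries. Their summed level (18 genes) was 69.8 in WT and 103 in *gnrh3*-/- LH gonadotropes. Of 17 compared, 6 were past 1.5-fold higher and 0 lower, against 5.94% and 2.51% of all genes. In FSH gonadotropes the summed level was 83.4 and 58.7, with 0 higher and 4 of 17 lower, against 4.43% and 2.82% of all genes. Their part in the *rgs16* values was not tested.

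**Figure D4:**
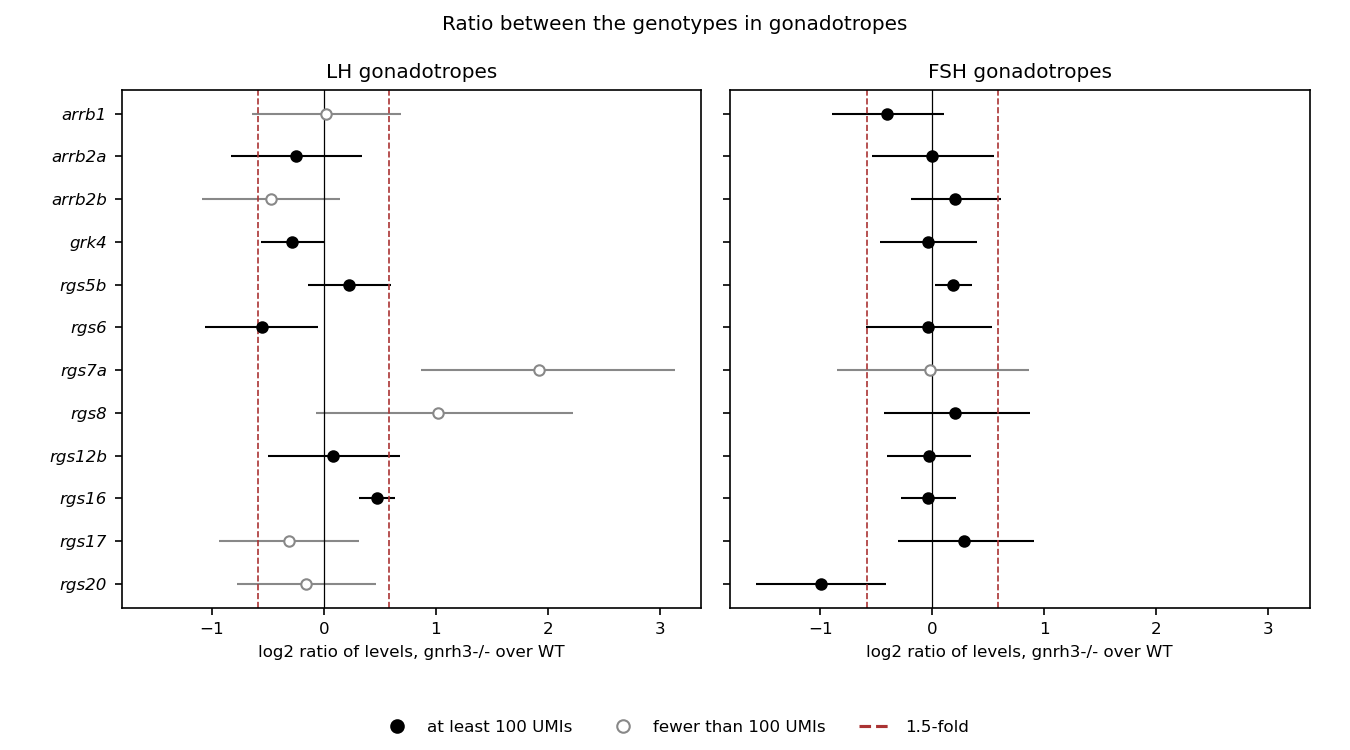
Log2 ratio of levels, *gnrh3*-/- over WT, in LH (left) and FSH gonadotropes (right), for the 11 genes of the comparison and *rgs7a*. Bars are exact 95% counting intervals, filled points have at least 100 UMIs over both libraries, and dashed lines mark 1.5-fold. Among filled points, *rgs20* in FSH gonadotropes at -0.99 is the one outside the dashed lines.

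*Rgs7a* (ENSDARG00000016584), an R7 gene, was looked at on its own because it lies near the mutated gene. In the gene order of GRCz12tu, 9 protein-coding genes lie between *rgs7a* and *gnrh3*. In LH gonadotropes it had 9 UMIs in WT and 47 in *gnrh3*-/- cells, at levels of 0.0237 [0.0108, 0.0449] and 0.0893 [0.0656, 0.119]. A UMI was found in 7 of 232 WT and 46 of 603 *gnrh3*-/- cells, and no cell held more than 2. The log2 ratio was 1.92 [0.87, 3.13], from 56 UMIs in all, under the minimum of 100. The alternatives placed it between 1.51 and 2.22. After thinning, the shares of cells were 0.435% and 1.34%. The WT share is near the level of 1 UMI, so the 2 shares are not read as a difference.

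No other type had an *rgs7a* interval above 0. In FSH gonadotropes *rgs7a* had 19 and 38 UMIs and a log2 ratio of -0.02 [-0.85, 0.86]. In thyrotropes it had 20 and 11 UMIs, a ratio of -1.22 [-2.43, -0.09]. In somatotropes alpha, with 30 and 55 of the 181 and 262 *rgs7a* UMIs in all cells, the ratio was 0.12 [-0.55, 0.81]. In the other types with at least 25 UMIs over both libraries, it was -0.91 in lactotropes, -0.31 in somatotropes beta, 0.58 in somatolactotropes alpha and -0.85 in corticotropes, each with an interval that includes 0. Empty droplets had *rgs7a* levels of 0.104 and 0.0562. Of the paralog *rgs7b*, 1 UMI was found in all LH gonadotropes, in the *gnrh3*-/- library, and none in FSH gonadotropes.

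In thyrotropes, the *tshba* cells, 2 of the 4 genes that passed were lower in *gnrh3*-/-, against 8.26% of 2662 genes, and 0 were higher, against 4.62%. *Rgs16* was at 2.21 [1.95, 2.49] and 1.08 [0.924, 1.26], a log2 ratio of -1.03 [-1.32, -0.75]. *Rgs8*, its neighbor in the gene order, was at 1.01 [0.840, 1.20] and 0.509 [0.403, 0.633], a ratio of -0.99 [-1.41, -0.57]. A UMI of both was found in 45 of 205 WT and 27 of 410 *gnrh3*-/- thyrotropes. Those counts of cells with both were taken without thinning, at median depths of 5451 and 3185 UMIs, and are not read as a difference. After thinning, 22.1% and 11.8% of cells had *rgs16* and 17.6% and 10.7% had *rgs8*, and without thinning 44.4% and 21.5% had *rgs16* and 42.9% and 17.8% had *rgs8*. The summed level of immediate early genes was 130 and 90.5 in these cells, with 6 of 14 lower, and its part in the result was not tested. The other genes, *grk4* (log2 ratio 0.31) and *arrb2b* (log2 ratio 0.03), had intervals that include 0.

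*Rgs16* and *rgs8* were lower in *gnrh3*-/- somatotropes beta too, as 2 of 6 genes compared, against 9.29% of 2626 genes. None of the 6 were past 1.5-fold higher, against 2.21%. *Rgs16* was at 0.676 [0.568, 0.799] and 0.369 [0.297, 0.454], a log2 ratio of -0.87 [-1.27, -0.48], and *rgs8* at 0.377 and 0.172, a ratio of -1.13 [-1.71, -0.57]. In somatotropes alpha, with 7 genes compared, 0 were past 1.5-fold, against 2.72% of 4417 genes higher and 6.57% lower. There *rgs16* was at 0.199 and 0.168 and *rgs8* at 0.129 and 0.106.

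In somatolactotropes alpha 1 of 6 genes, *rgs5b*, was past 1.5-fold higher, against 2.73% of 2490 genes, and 0 were lower, against 4.3%. It had 75 UMIs in 220 WT cells and 252 in 466 *gnrh3*-/- cells, at 0.735 [0.578, 0.921] and 1.90 [1.67, 2.15], a log2 ratio of 1.37 [0.99, 1.76]. The share of thinned cells with a UMI was 7.41% and 20.1%. No cell held more than 9 WT or 14 *gnrh3*-/- UMIs. The alternatives placed the ratio between 1.37 and 1.6. Empty droplets were at 0.945 and 1.21, and free RNA was estimated at 0% and 0.995% of the UMIs of these cells. The ratio was 1.37 after its subtraction, which took nothing from the WT cells. The WT estimate was set by *CGA* alone, while *gh1* was at 13.6 and *prl* at 4.91 in the same cells. A larger share of free RNA was not tested. *Rgs16* (log2 ratio -0.27) and *rgs8* (log2 ratio -0.18) had intervals in these cells that include 0. In 3 types under the minimum of UMIs the *rgs5b* interval was also above 0. The ratio was 1.86 [0.57, 3.43] in thyrotropes (6 and 28 UMIs), 1.66 [0.51, 3.06] in somatolactotropes beta (7 and 47) and 2.22 [0.36, 4.67] in melanotropes (3 and 13). Levels in thyrotropes (0.0489 and 0.178) and in melanotropes were below those of empty droplets. Hormone genes of other types summed to 12.3 and 386 in thyrotropes, 3.78 and 124 in somatolactotropes beta and 5.21 and 153 in melanotropes. Their part in these ratios was not tested. Lactotropes, also under the minimum, had the other sign, at -0.18 [-1.72, 1.45] from 7 and 10 UMIs.

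In corticotropes 1 of 5 genes was lower, against 9% of 2588 genes, and 0 were higher, against 4.44%. The lower one was *rgs12b*, at 0.707 [0.569, 0.870] and 0.373 [0.283, 0.482], a log2 ratio of -0.92 [-1.43, -0.43]. Its ratio was also below 0, short of 1.5-fold, in somatotropes alpha (-0.46 [-0.74, -0.18]), somatotropes beta (-0.47) and lactotropes (-0.43 [-0.89, 0.03]). It was 0.08 in LH gonadotropes, -0.03 in FSH gonadotropes and 0.07 in somatolactotropes alpha. *Rgs5b*, the best counted of these genes in corticotropes, was at -0.06 [-0.23, 0.11] in them. For *rgs16* the ratio was -0.27 [-0.55, 0.02], and 1 WT cell held 61 of 206 UMIs; without the top cell of each library it was 0.10. In lactotropes 1 of 3 genes, *grk4*, was lower, against 12.1% of 1849 genes (2.27% higher), at 0.571 and 0.367 and a ratio of -0.64 [-1.22, -0.05]. It was short of 1.5-fold in 3 alternatives, at -0.41 with TMM scaling, -0.51 as a mean of per-cell levels and -0.57 with hormone genes left out of the total. None of the 40 genes passed the minimum in somatolactotropes beta, melanotropes, *isl1*+ cells or the undetermined type.

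**Figure D5:**
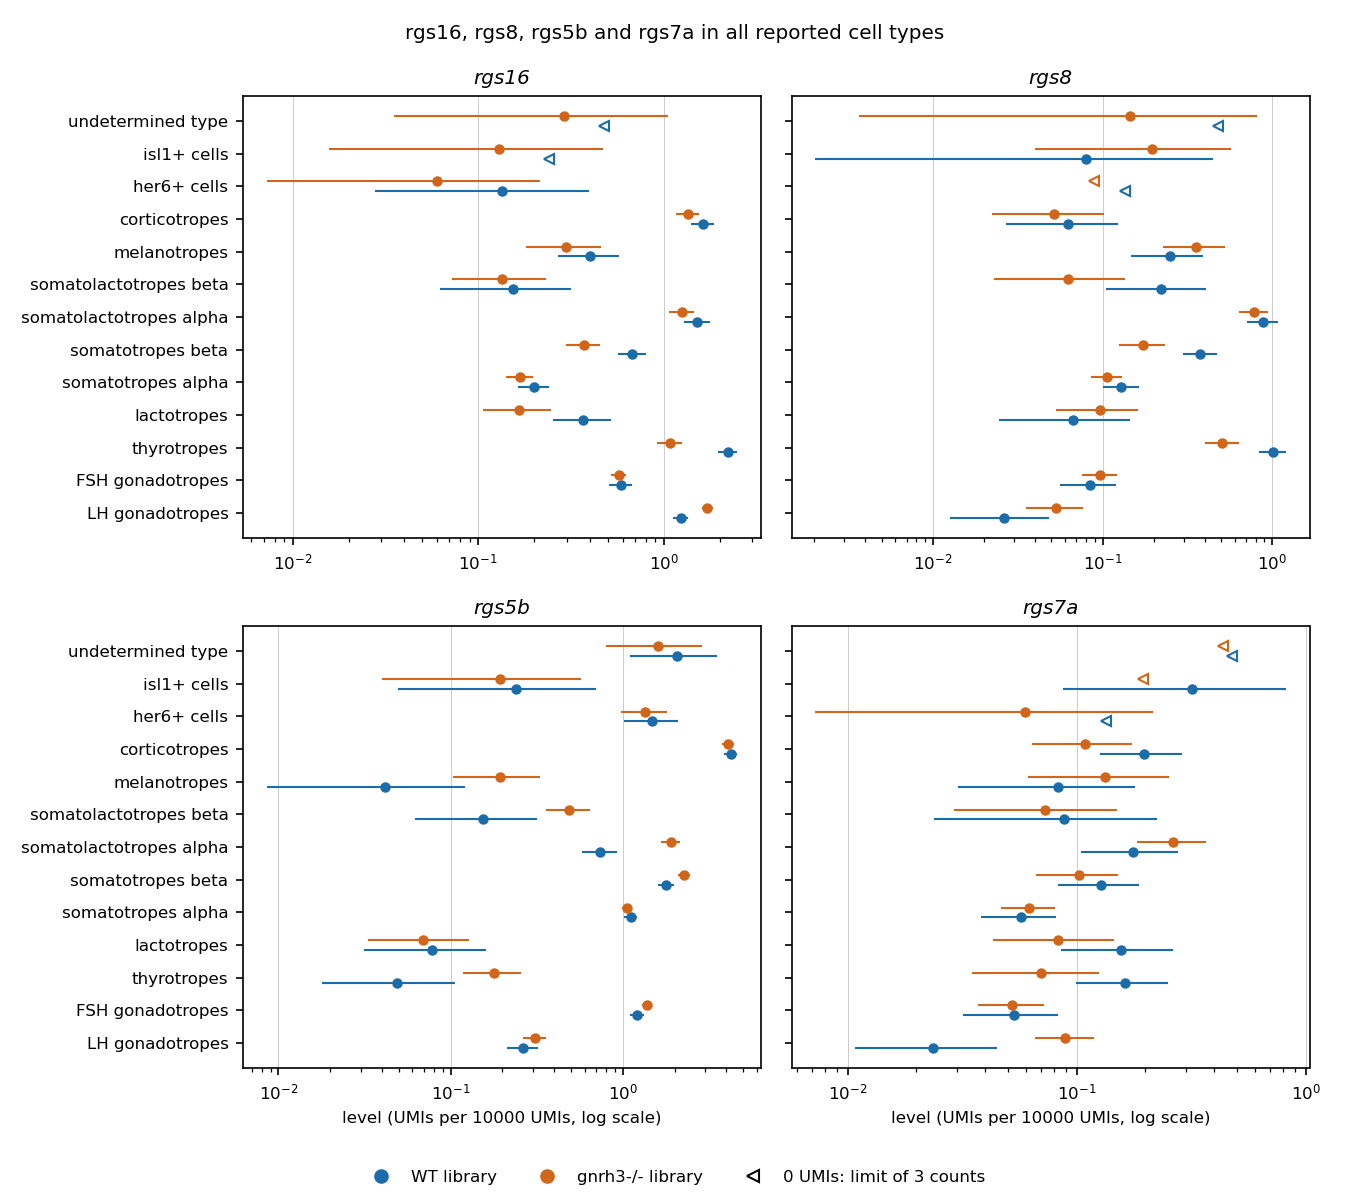
Levels (UMIs per 10000 UMIs, log axes that differ between panels) of *rgs16*, *rgs8*, *rgs5b* and *rgs7a* by cell type in the WT library (blue) and the *gnrh3*-/- library (orange), with exact Poisson 95% intervals; open triangles give the level of 3 counts where there were 0 UMIs. For *rgs16* the orange point lies to the right of the blue one in LH gonadotropes (1.72 and 1.24) and to its left in thyrotropes (1.08 and 2.21).

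Other genes of the same pathway were counted as lists. Of 21 genes for G alpha subunits, 19 were in the gene list and 7 passed the minimum in both gonadotrope types. In FSH gonadotropes 0 were past 1.5-fold in either direction, against 7.26% of all genes. In LH gonadotropes 0 were higher in *gnrh3*-/- and 1 lower, against 5.94% and 2.51% of all genes. The lower one was *gna12a*, at 0.200 and 0.0836 in LH gonadotropes, and it was also higher in FSH than in LH gonadotropes in both libraries, with log2 ratios LH over FSH of -1.55 and -2.73. *Gnao1a*, a Go subunit, was higher in LH gonadotropes, with log2 ratios of 0.73 and 0.80. These were 1 of 7 genes in each direction, against 11.9% of all genes higher in LH and 9.56% higher in FSH gonadotropes.

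Of the 2 genes for G beta 5, the partner of R7 proteins, *gnb5a* was at 0.129 and 0.146 in LH gonadotropes, and *gnb5b* was under the minimum there. A further list held 19 genes taken as G alpha regulators, 18 of them in the gene list. Whether they act on G alpha in these cells was not tested. In it, *axin1* was past 1.5-fold higher in *gnrh3*-/- LH gonadotropes (log2 ratio 0.65), of 4 genes that passed, against 5.94% of all genes. In *gnrh3*-/- FSH gonadotropes *axin2* was higher (log2 ratio 0.60), of 5, against 4.43%. The median log2 ratios of the genes that passed were 0.04 and -0.20. Of 18 genes, 17 of them in the gene list, for rod arrestins, clathrin, AP2, dynamin and Rab5, the endocytic partners of arrestins, 11 passed in each gonadotrope type and 0 were past 1.5-fold in either direction between the genotypes. The shares over all genes were 8.46% in LH and 7.26% in FSH gonadotropes. Between LH and FSH gonadotropes, 0 of these 11 differed by 1.5-fold in both libraries, against 21.5% of all genes.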

How the data were processed

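Pituitary cells of 1 WT and 1 *gnrh3*-/- pool were captured with droplet 3′ chemistry. The authors aligned reads to GRCz11 with protein-coding genes only. The UMI counts they deposited are raw, 1 value per gene and barcode, for all barcodes and for the filtered cells, with a genotype and a cell type for each cell. The methods and labels name Cell Ranger 6.0.2 and Seurat 4, and the headers of the deposited count files name Cell Ranger 4. In the deposited cells, 0 entries differed from the counts of all barcodes. Cells were reported in 13 of the 14 deposited types. The values of 1 type are not reported here, and totals over all cells of a library include its cells.

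UMIs were summed per type and library with Python 3.11.15, numpy 2.4.6 and pandas 2.3.3. Intervals were computed with scipy 1.17.1, doublets called with Scrublet in scanpy 1.11.5 at an expected rate of 0.05, and TMM factors taken from edgeR 4.0.16. No test was run, since 1 library per genotype has no replicates. With 3 counts as the limit, a count of 0 allows a level of 0.00788 in WT LH gonadotropes, and of 0.476 in the WT undetermined type. The ratios, folds and the rule for 1 highest type were tested on simulated sums drawn from the Poisson distribution. The simulated sums had no spread between cells or animals, so the test says nothing about such spread. Thinning drew 2000 UMIs per cell without replacement with a fixed seed, and shallower cells were left out. Genes named were those with 1 highest type, those with 100 UMIs in LH or FSH gonadotropes, *rgs7a* and *rgs7b*. Genes outside this rule were named after their values were seen. The members, gene lists, marker lists and alternatives were chosen with earlier results of these data known. Gene order was taken from GRCz12tu, in which 39 of 40 members matched. The alternatives were a mean of per-cell levels, TMM scaling, a total without hormone genes, subtraction of free RNA, leaving out doublets, cells with over 5% of a hormone of another type, cells under 1000 UMIs or the cell with the most UMIs, other minimums and folds, and other thinning. Near-identical paralogs can lose reads that map to both, which was not measured.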

Additional observations from a re-analysis of the deposited data

Results flagged for a closer look

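The log2 ratio *gnrh3*-/- over WT of *rgs7a* was higher in LH gonadotropes (1.92) than in thyrotropes (-1.22), a difference of 3.14. The counting intervals of the 2 types excluded 0 in opposite directions, which is why this gene was flagged. The pair is the highest and lowest of the types with such intervals, so the size of the difference follows from that choice. These ratios rest on 56 and 31 UMIs, and the difference was not tested, as each genotype has 1 library.

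For *rgs16*, flagged and paired in the same way, the ratio in LH gonadotropes (0.48) and in lactotropes (-1.15) differed by 1.63, with intervals on opposite sides of 0. In thyrotropes and somatotropes beta the *rgs16* interval was below 0 as well. In lactotropes *rgs16* had 33 WT and 24 *gnrh3*-/- UMIs, under the minimum of 100. This difference was not tested either.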

How the results depend on the processing

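The spread between animals cannot be had from these libraries, and genotype cannot be told apart from library. No paired analysis was possible because each genotype has 1 library. Types under 50 cells and genes under 100 UMIs limit what can be seen. TMM scaling shifted every log2 ratio between the genotypes by 0.28 in *her6*+ cells, 0.23 in lactotropes, 0.21 in somatotropes beta, 0.18 in thyrotropes, 0.14 in somatotropes alpha and 0.12 in corticotropes, and by less than 0.1 in LH and FSH gonadotropes and somatolactotropes alpha. No value changed its direction once past the fold. Of the alternative values for counts of genes, shares of cells and *rgs7a* ratios, 103 stayed within the limits set for them and 23 moved.

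The number of genes with 1 highest type, 4, was 2 (*arr3a* and *rgs3b*) without types of fewer than 50 cells. In LH gonadotropes the number past 1.5-fold between the genotypes, 0, was 1 with a mean of per-cell levels, TMM scaling, a total without hormone genes, no doublets, no top cell, or a minimum of 50 UMIs, and 4 with a minimum of 20 UMIs (*grk5l*, *rgs7a*, *rgs8* and *rgs12a*). In FSH gonadotropes the number, 1, was 0 without the top cell or at a fold of 2, 2 with a minimum of 50 UMIs and 3 with a minimum of 20. The 5 genes that separated LH and FSH gonadotropes were the same in all alternatives for cells and scaling, with 7 at a minimum of 20 UMIs and 4 at a fold of 2.

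Shares of cells followed the depth. Thinned to 1000 UMIs, the share with *arr3a* in corticotropes was 19.4% in WT and 14.6% in *gnrh3*-/-. With *rgs5b* in FSH gonadotropes it was 10.4% and 13.4%, and with *rgs16* in LH gonadotropes 9.91% and 9.62%. Without thinning, these shares were 58.6% and 47.1% for *arr3a*, 51.1% and 49.5% for *rgs5b*, and 42.7% and 34.3% for *rgs16* in WT and *gnrh3*-/- cells.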
